A study of Mus musculus with 8 samples.

Results

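Malat1, Neat1, Gas5, Snhg1, Snhg12 and Dnm3os are 6 mouse genes whose long transcripts work as RNA, or as precursors of small RNAs, rather than coding for a protein. They were chosen by symbol, and all 6 were found among the 54532 entries of the deposited gene count table. RNAseq compared pFBs (primary lung fibroblasts) of wild type female mice (WT, 4 libraries) with pFBs of female mice homozygous for a human IGFBP5 transgene (hIGFBP5; HOMO, 4 libraries). The transgene was knocked in with CRISPR/Cas9, both genotypes had a C57/black background, and the cells of both were cultured from lung and passaged before use. The transgene is driven by the Ef1a1 promoter of a housekeeping gene, which is not particular to fibroblasts. The number of mice behind the libraries is not given in the sources used here, so p-values measure the spread between libraries, which may be technical. The human transgene was not analysed here, and the mouse Igfbp5 gene had between 112 and 7130 counts in WT and between 24 and 57 counts in HOMO, the highest in WT3.

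Malat1 and Neat1 are nuclear RNAs transcribed from neighbouring genes. Malat1 gathers in nuclear speckles, which hold splicing factors, and the long form of Neat1 is the scaffold of paraspeckles, nuclear bodies built with the proteins Nono, Sfpq and Pspc1. Gas5, Snhg1 and Snhg12 are small nucleolar RNA (snoRNA) host genes. Their introns release snoRNAs, which guide the chemical modification of ribosomal and other RNAs, while the spliced exons leave the nucleus and are mostly removed by nonsense-mediated decay. Gas5 RNA is known to accumulate in growth-arrested cells and to bind the glucocorticoid receptor. Dnm3os is transcribed from the opposite strand of the dynamin gene Dnm3 and is the precursor of miR-199a and miR-214, small RNAs known in mesenchymal cells and in fibrosis.

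The processed products of these genes are what much of their biology is known for, so examples are shown here. The 4 mature miRNAs from Dnm3os, as RefSeq gives them on the plus strand of GRCm38.p6, lie at chr1:162217844-162217866, chr1:162217883-162217904, chr1:162223397-162223418 and chr1:162223438-162223459 in the order below, with the seed (bases 2 to 8, which pair with targets) in capitals. No seed is shared among them.
mmu-miR-199a-5p: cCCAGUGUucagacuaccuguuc
mmu-miR-199a-3p: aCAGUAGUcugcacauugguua
mmu-miR-214-5p: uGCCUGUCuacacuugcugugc
mmu-miR-214-3p: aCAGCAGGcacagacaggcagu

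Snord47 of Gas5 (GRCm38 chr1:161038082-161038158) and Snord99 of Snhg12 (chr4:132310691-132310764) stand for box C/D snoRNAs, with the letters TGATGA of box C and CTGA of box D in capitals. Snora61 of Snhg12 (chr4:132310240-132310369) stands for box H/ACA snoRNAs, with the last ACA in capitals, 3 bases from its end. All are on the plus strand and from GENCODE M21.
Snord47: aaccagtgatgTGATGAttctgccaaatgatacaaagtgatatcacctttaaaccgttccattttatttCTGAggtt
Snord99: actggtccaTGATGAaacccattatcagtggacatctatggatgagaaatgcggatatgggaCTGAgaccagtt
Snora61: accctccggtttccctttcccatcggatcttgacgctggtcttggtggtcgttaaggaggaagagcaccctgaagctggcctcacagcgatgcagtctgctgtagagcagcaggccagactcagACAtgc

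These products were not seen by the assay, which counted poly(A)-selected RNA. The 9 snoRNA names annotated within Gas5, the 8 within Snhg1 and the 4 within Snhg12 had 0 counts in all 8 libraries, as did Mir199a-2 and Mir214 within Dnm3os. A count of 0 in a library allows up to 3 counts, or 0.0938 to 0.174 CPM (counts scaled to library size), for counting error only. Of all 1511 snoRNA entries of the table, 239 had any count. These small genes lie inside host exons of some annotated transcript, over 17.8% of the exon bases of Gas5, 20.95% of Snhg1, 19.6% of Snhg12 and 2.78% of Dnm3os, where a read matches both genes. How such reads were assigned is not given in the sources used here. If they were left uncounted, the annotation alone would give a count of 0, and the bound above would not hold. The values below are therefore levels of the long host transcripts and say nothing of how much snoRNA or miRNA was made.

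The WT libraries held 17236521 to 29028769 counts each and the HOMO libraries 19009027 to 31987790. Within a genotype, 3 pairs of libraries were almost alike (WT1 with WT2, HOMO1 with HOMO2, HOMO3 with HOMO4). Their biological coefficient of variation (BCV, the spread beyond counting error) was 4.71% to 7.65%, whereas that of any further same-genotype pair was 30.1% to 56.5%. Fibroblast markers summed to between 12940 and 24380 CPM in all 8 libraries. Of 9 such genes, 2 were downregulated, against 6.18% of all tested genes. These were Pdgfrb (log2 fold change -0.97, edgeR adjusted p = 0.0251) and Vim (-0.65, adjusted p = 0.0430). The 9 genes had 4 positive and 5 negative log2 fold changes, the highest being 0.82 for Col1a1 (edgeR adjusted p = 0.0985). Endothelial markers summed to between 2.42 and 8.48 CPM and epithelial markers to between 1.43 and 35.8 CPM. Of 3 epithelial genes tested, Cdh1, at most 2.21 CPM in a library, was upregulated (log2 fold change 2.77, edgeR adjusted p = 0.0462). Krt18 gave 0.66 (edgeR adjusted p = 0.655) and Krt19, highest in WT1 and WT2, gave -3.06 (adjusted p = 0.0856). Markers of macrophages and leukocytes, 8 of 8 detected and none at 0 throughout, summed to 1926 CPM in WT3 and 1120 CPM in WT4, against 129 and 156 CPM in WT1 and WT2 and 56.7 to 186 CPM in HOMO. Lyz2 alone made up 1707 CPM of this sum in WT3 and 912 CPM in WT4. Mesothelial markers, 5 of 5 detected, summed to 21.8 and 24.2 CPM in WT1 and WT2. They summed to 177 and 119 CPM in WT3 and WT4 and to between 91.4 and 139 CPM in HOMO. Of these 5 genes only Wt1 was upregulated (log2 fold change 3.36, edgeR adjusted p = 0.0166), against 5.94% of all tested genes. The log2 fold change was positive for 3 of the 5 and negative for 2, Msln (-0.52) and Krt7 (-0.36). Smooth muscle and pericyte markers, 6 of 6 detected, summed to between 774 and 2707 CPM in WT, 199 and 206 CPM in HOMO1 and HOMO2 and 1453 and 1428 CPM in HOMO3 and HOMO4. This sum was mostly Acta2, with 743 to 2418 CPM in WT, 190 and 197 CPM in HOMO1 and HOMO2 and 1363 and 1337.5 CPM in HOMO3 and HOMO4. Of the 6 genes, Rgs5 was downregulated (log2 fold change -5.20, edgeR adjusted p = 0.0486), with 932 of its WT counts in WT4 and 12 to 90 in each other WT library. Mitochondrial transcripts took 0.643% to 1.39% of counts in WT and 1.82% to 2.16% in HOMO. The part of these differences in the results below was not tested. In such bulk samples, fewer cells of a type and less RNA per cell cannot be told apart.

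None of the 6 genes was a DEG. HOMO and WT were compared by edgeR's quasi-likelihood test over 14150 genes, where DEGs needed an adjusted p below 0.05 and a log2 fold change beyond 0.6 in either direction. The count was 0 of 6 genes, where 12.1% of all tested genes were called. By unadjusted p under 0.05, 4 of the 6 passed, against 32.3% of all tested genes. DESeq2 called 0 of 6, against 16.5% of the genes it tested. In limma-voom with sample quality weights, 2 of 6 were called, against 25.3% of all genes. WT and HOMO levels were fully separate for 2 of 6 genes (Neat1 and Snhg1), against 27.3% of all tested genes. The median log2 fold change of the 6 genes was 0.36, and that of all tested genes was -0.04.

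**Figure D1:**
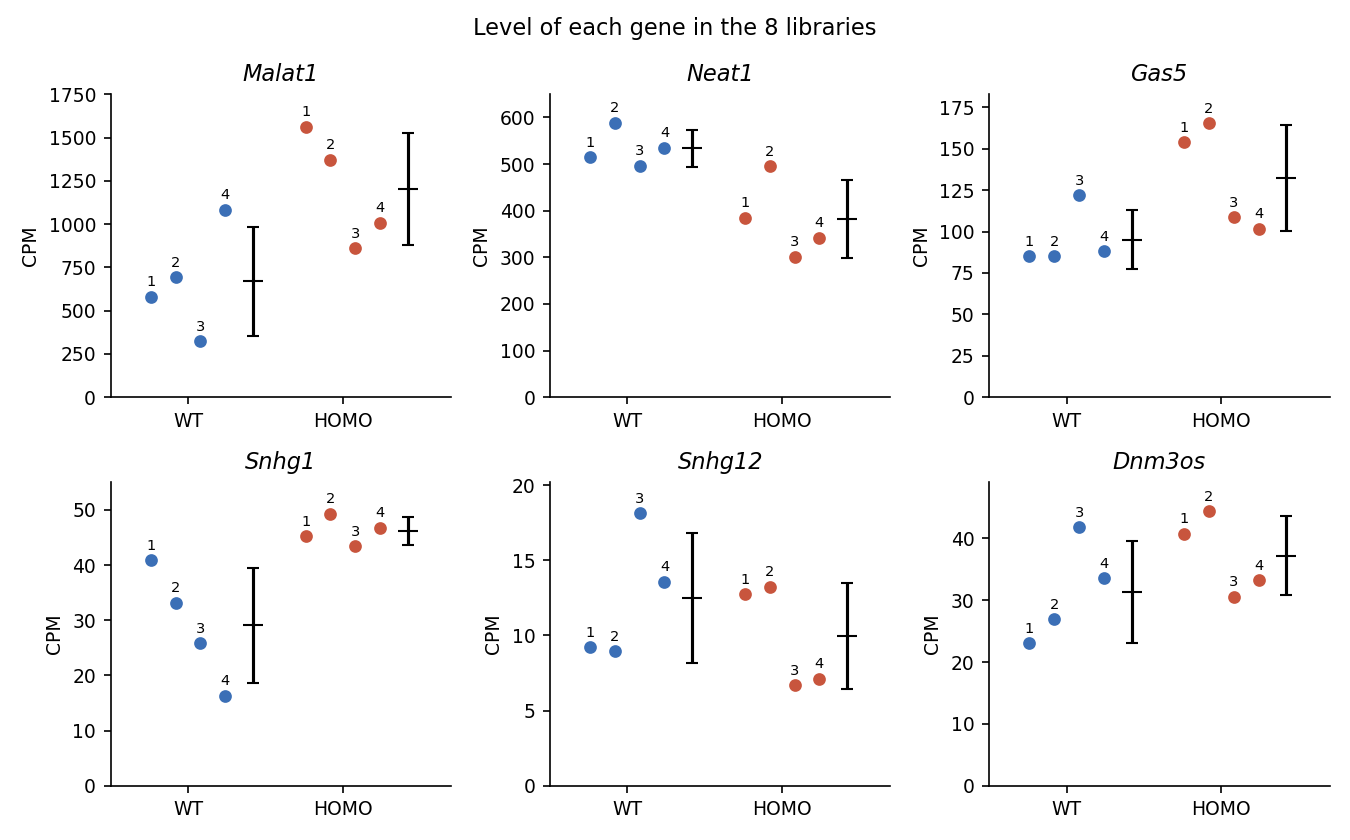
Level of the 6 genes in CPM (vertical axes, each from 0) in the 4 WT (blue) and 4 HOMO (red) libraries, numbered by replicate, with bars for mean and SD. Neat1 was lower and Snhg1 higher in all 4 HOMO libraries than in all 4 WT libraries, while the other 4 genes overlapped between genotypes.

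Malat1 (ENSMUSG00000092341.3, GRCm38 chr19:5795690-5802672, minus strand, a lincRNA of 6983 exon bases) had the highest level per kilobase of the 6 genes when the whole exon length of each is taken. Its level was 580 CPM in WT1, 694 in WT2, 324 in WT3 and 1083 in WT4. In HOMO it was 1564 CPM in HOMO1, 1373 in HOMO2, 861 in HOMO3 and 1009 in HOMO4. Of the WT libraries, 3 were below every HOMO library, and WT4 was above HOMO3 and HOMO4, so that the genotypes overlapped. The mean was 670 ± 316 CPM in WT (SD, n = 4 libraries) and 1202 ± 323 CPM in HOMO (SD, n = 4 libraries). The log2 fold change was 0.84 with an SE of 0.36, and the difference did not pass edgeR's test (adjusted p = 0.144). The outcome depended on WT4. Without that library the log2 fold change was 1.17 with an edgeR adjusted p of 0.0496, past the threshold that 12.8% of all genes then passed. In limma-voom the log2 fold change was 0.70 (adjusted p = 0.00879). A gene on the opposite strand, Gm37376, shares 6.49% of the exon bases of Malat1, and whether reads were counted by strand is not given in the sources used here.

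Neat1 (ENSMUSG00000092274.3, chr19:5824708-5845478, minus strand, a lincRNA of 20771 exon bases) had a log2 fold change of the opposite sign to that of Malat1. The 4 WT libraries held 515, 588, 496.3 and 535 CPM, in the order of their numbers. The HOMO libraries held 385, 495.6, 302 and 342 CPM. All 4 HOMO libraries were below all 4 WT libraries, but HOMO2 came within 1 CPM of WT3. From a mean of 534 ± 39.8 CPM in WT (SD, n = 4 libraries), the level was 381 ± 83.6 CPM in HOMO (SD, n = 4 libraries). The log2 fold change was -0.49 with an SE of 0.17 and an edgeR adjusted p of 0.0971, short of both thresholds. limma-voom, which weights the libraries unequally, gave -0.68 and an adjusted p of 0.00162, and so called Neat1 a DEG.

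Neat1 is made as a short transcript of 3004 bases and a long one of 20771 bases from the same start, and a gene count does not separate them. Their last 30 bases are shown, with those of Malat1, because poly(A) selection can favour transcripts that end at a poly(A) signal, the letters AATAAA, here in capitals. The sequences are from GENCODE M21 (Neat1-202 is the short transcript and Neat1-201 the long one).
Neat1-202: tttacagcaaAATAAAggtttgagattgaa
Neat1-201: gagaacgaacgtgagcaggaaaaagcaaaa
Malat1-201: ttttatgaAATAAAaactaaatatctctca

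The short Neat1 transcript and the annotated Malat1 end had these letters, and the last 30 bases of the long Neat1 transcript did not. Malat1 and long Neat1 are known to be cut free by RNase P at a tRNA-like structure, and the small RNA gene Gm27702, directly downstream of Neat1, had 1 count, in WT1. Divided by the exon bases of the whole gene, Neat1 stood at 25.7 CPM per kilobase in WT and 18.4 in HOMO, and divided by the length of the short transcript alone at 178 and 127. Malat1 stood at 96.0 CPM per kilobase in WT and 172 in HOMO, so that the order of Malat1 and Neat1 in WT depended on the Neat1 length taken.

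Within each library, the ratio of Malat1 to Neat1 counts needs no scaling for library size. It was 1.13, 1.18, 0.654 and 2.03 in WT1 to WT4. In HOMO1 to HOMO4 it was 4.06, 2.77, 2.86 and 2.95. Every HOMO library was above every WT library, also WT4, whose Malat1 level overlapped HOMO. The mean ratio was 1.25 ± 0.57 in WT (SD, n = 4 libraries) and 3.16 ± 0.60 in HOMO (SD, n = 4 libraries). This ratio was chosen after the values were seen and was not tested. Across the 8 libraries, log2 levels of Malat1 and Neat1 had a Pearson r of -0.31, given as a description of libraries that share genotype and near-identical pairs. By the same measure, the genes most like Malat1 were Aff4 (r = 0.993), a scaffold gene of transcription elongation, March6 (r = 0.993) and F11r (r = 0.992), and 143 genes had r above 0.95. Those most like Neat1 were Ssbp2 (r = 0.933), Adpgk (r = 0.925) and Hyal1 (r = 0.925), and 0 genes had r above 0.95.

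**Figure D2:**
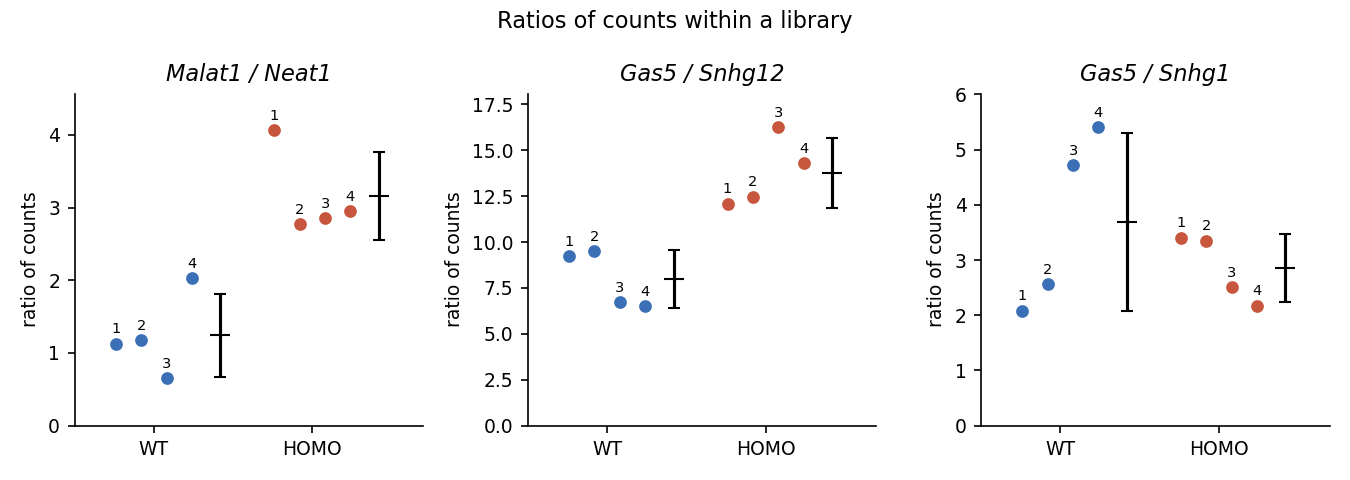
Ratio of counts of 2 genes within a library (vertical axes, each from 0) in WT (blue) and HOMO (red), numbered by replicate, with bars for mean and SD. Malat1 over Neat1 and Gas5 over Snhg12 were higher in all 4 HOMO libraries, and Gas5 over Snhg1 overlapped between genotypes.

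Few genes for proteins of the bodies that these RNAs occupy passed the test. Of 16 paraspeckle protein genes tested, 1 was called, upwards, against 5.94% of all genes called upwards. It was Nudt21, a subunit of the complex that sets poly(A) site choice. Nudt21 had 66.2, 58.1, 63.2 and 51.8 CPM in WT1 to WT4 and 105, 100.4, 90.4 and 89.5 CPM in HOMO1 to HOMO4, with no overlap, and a log2 fold change of 0.69 (SE 0.13, edgeR adjusted p = 0.0130). The core paraspeckle proteins gave log2 fold changes of 0.23 for Nono (edgeR adjusted p = 0.337), 0.22 for Sfpq (adjusted p = 0.621) and 0.38 for Pspc1 (adjusted p = 0.246). The median of the list was 0.14.

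Nuclear speckle proteins, the splicing factors among which Malat1 resides, had 0 of 14 genes called by edgeR and 1 at an unadjusted p under 0.05, below the 12.1% and 32.3% of all tested genes. Their log2 fold changes were positive for 13 of 14, with a median of 0.23. The splicing factor Srsf1 stood at 209 ± 89.2 CPM in WT and 220 ± 30.01 in HOMO (SD, n = 4 libraries each; edgeR adjusted p = 0.889). Of 11 tested genes for RNase P subunits and Elac2, the enzymes that trim the Malat1 and Neat1 ends, 0 were called by edgeR and 1 had an unadjusted p under 0.05, where 12.1% and 32.3% of all genes did. All 11 had negative log2 fold changes, with a median of -0.23.

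The protein-coding genes around Malat1 and Neat1 did not share one direction. Ltbp3, which codes for a protein that holds latent TGF-beta in the matrix, averaged 517 CPM in WT against 723 CPM in HOMO, which gave 0.48 on the log2 scale (SE 0.19, edgeR adjusted p = 0.119). Frmd8, 4223 bases from Neat1, gave -0.01 (edgeR adjusted p = 0.980). Cdc42ep2, a regulator of the actin cytoskeleton 70157 bases from Neat1, was upregulated from 42.2 ± 9.02 to 71.7 ± 6.33 CPM (SD, n = 4 libraries each), a log2 fold change of 0.77 (edgeR adjusted p = 0.0262). Further tested neighbours of the pair were not called, with log2 fold changes of 0.28 for Map3k11, -0.26 for Ehbp1l1, 0.03 for Sssca1, -0.76 for Slc25a45, 1.29 for Tigd3, 0.26 for Dpf2 and 0.27 for Pola2. Kcnk7 and Fam89b had too few counts to be tested. Within 100 kilobases of the 6 genes, 31 protein-coding genes were tested and 2 were called (6.45%, against 12.1% of all genes). The other was Taf12, near Snhg12, described below.

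Gas5 (ENSMUSG00000053332.13, chr1:161034422-161038539, plus strand, 3760 exon bases) had the highest level per kilobase of the snoRNA hosts. Its level was 85.2, 85.1, 122 and 88.3 CPM in WT1 to WT4. In the HOMO libraries it was 154, 165, 109 and 102 CPM. WT3 was above HOMO3 and HOMO4, and the other 3 WT libraries were below every HOMO library. The mean was 95.1 ± 17.9 CPM in WT (SD, n = 4 libraries) and 132 ± 31.9 CPM in HOMO (SD, n = 4 libraries), with a log2 fold change of 0.48, an SE of 0.20 and an edgeR adjusted p of 0.147. Within HOMO, the HOMO1 and HOMO2 pair (mean 160 CPM) stood 0.60 above the HOMO3 and HOMO4 pair (mean 105 CPM) on the log2 scale, a larger gap than the one between genotype means. Without WT3 the log2 fold change was 0.62, with an edgeR adjusted p of 0.0566.

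Proliferation genes, which mark dividing cells, summed to 1726, 1508, 300.2 and 155 CPM in WT1 to WT4 and to 301, 295, 1290 and 1157 CPM in HOMO1 to HOMO4. The HOMO libraries with high Gas5 were thus those with low proliferation genes, whereas WT4 had low proliferation genes and low Gas5. None of the 12 proliferation genes was called by edgeR, 0 had an unadjusted p under 0.05 (12.1% and 32.3% of all genes), and their part in the Gas5 values was not tested.

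The genes whose pattern was most like that of Gas5 over the 8 libraries, by Pearson r of log2 CPM, were Rpl23 (r = 0.993), a ribosomal protein gene, Tpt1 (r = 0.989), which codes for the translationally controlled tumour protein, and the pseudogene Gm9269 (r = 0.988). Counted after these names were seen, 4 of the 50 genes with r above 0.95 (8%) were ribosomal protein genes, which made up 0.566% of the tested genes. Over all 80 ribosomal protein genes tested the median r with Gas5 was 0.83, against -0.000531 over all genes, and against 0.35 for Snhg1 and 0.40 for Snhg12. For Dnm3os, which is not a snoRNA host, the median r was 0.715, so the likeness was not particular to Gas5. Ribosomal protein genes were 2 of the 65 genes (3.08%) that had r above 0.95 with Dnm3os. The libraries share genotypes and near-identical pairs, so these are descriptions with no test, and ribosomal protein genes can share reads with their many pseudogenes. Of the 80 genes, 2 were called upwards and 0 downwards, beside 5.94% and 6.18% of all genes, with a median log2 fold change of 0.21.

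snoRNA hosts and ribosomal protein genes are known to begin with a 5' terminal oligopyrimidine tract, a C followed by a run of C and T that ties their translation to growth signals. The RefSeq starts of the 3 hosts (GRCm38.p6, plus strand) are shown for this reason, as 30 bases before and 30 from the start, with the run of C and T at the start in capitals. They span chr1:161035136-161035195 for the downstream one of the Gas5 starts in RefSeq, chr19:8723457-8723516 for Snhg1 and chr4:132308648-132308707 for Snhg12.
Gas5: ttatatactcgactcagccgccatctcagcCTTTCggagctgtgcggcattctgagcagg
Snhg1: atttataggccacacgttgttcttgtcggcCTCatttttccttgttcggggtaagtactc
Snhg12: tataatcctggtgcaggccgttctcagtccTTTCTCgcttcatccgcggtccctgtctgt

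With a C and at least 4 further C or T required at the annotated start, on the gene's strand, the downstream Gas5 start met the rule with CTTTC. The upstream Gas5 start in RefSeq, at base 161034601 of chromosome 1, and the starts of Snhg1 and Snhg12 did not. Nor did those of Rpl23 and Tpt1, the genes named above as most like Gas5, whose first base was not C or T. Of 27025 genes with a start in the RefSeq table, 3.01% met it, and of 61 ribosomal protein genes 21.3%. The rule depends on the exact annotated base, and a start 1 or more bases away would be scored differently.

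Gas5 binds the glucocorticoid receptor, and 9 genes of the receptor and its known targets were tested. edgeR called 0 of them, against 12.1% of all genes, and 1 had an unadjusted p under 0.05, against 32.3%. The receptor gene Nr3c1 stood at 176 ± 44.2 CPM in WT and 145 ± 18.1 in HOMO (SD, n = 4 libraries each), a log2 fold change of -0.27 (edgeR adjusted p = 0.360). The target Tsc22d3 gave -0.06 (edgeR adjusted p = 0.913). Zbtb37, whose gene overlaps that of Gas5 on the opposite strand without sharing exon bases, gave 0.72 (SE 0.37, edgeR adjusted p = 0.209). The neighbours Rc3h1 (0.25), Cenpl (-0.0018) and Klhl20 (0.03) were not called, and Serpinc1 had too few counts to be tested.

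Snhg1 (ENSMUSG00000108414.1, chr19:8723475-8726443, plus strand, 2969 exon bases) was the second gene with no overlap. WT1 to WT4 held 40.9, 33.2, 25.8 and 16.3 CPM. HOMO1 to HOMO4 held 45.3, 49.3, 43.4 and 46.8 CPM. The HOMO libraries lay close together and above every WT library, and the WT libraries were spread over a range of 1.32 on the log2 scale against 0.18 in HOMO. The mean was 29.1 ± 10.5 CPM in WT (SD, n = 4 libraries) and 46.2 ± 2.50 CPM in HOMO (SD, n = 4 libraries). The log2 fold change of 0.67 (SE 0.25) was past the fold threshold, and the edgeR adjusted p of 0.110 was not. Genes on chromosome 19 had median log2 shifts of 0.16, 0.146, -0.017 and -0.219 in WT1 to WT4. Each shift was relative to the mean of the other WT libraries, and their order was that of Snhg1. With each chromosome's shift from the mean of all libraries taken out, Snhg1 gave 0.655 (edgeR adjusted p = 0.0757). On the same chromosome, Malat1 then gave 0.772 and Neat1 -0.529. Slc3a2, the amino acid transporter subunit gene whose start lies 105 bases away on the opposite strand, gave a log2 fold change of 0.13 (edgeR adjusted p = 0.559). Nxf1, the mRNA export receptor 30629 bases from Snhg1, gave 0.47 (edgeR adjusted p = 0.116). Further neighbours had log2 fold changes of 0.18 for Stx5a, 0.04 for Taf6l, -0.33 for Polr2g, -0.45 for Zbtb3, 0.00 for Ttc9c and 0.15 for Hnrnpul2, with no call, and Chrm1, Wdr74 and 1700092M07Rik were left out of the test for their low counts. The genes most like Snhg1 were Trerf1 (r = 0.987), Mpped2 (r = 0.986) and Tet1 (r = 0.986).

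Snhg12 (ENSMUSG00000086290.9, chr4:132308623-132311024, plus strand, 2402 exon bases) had few counts, from 132 to 438 per library. WT1 to WT4 held 9.23, 8.97, 18.1 and 13.6 CPM. HOMO1 to HOMO4 held 12.7, 13.3, 6.69 and 7.12 CPM. WT3 and WT4 were above WT1 and WT2, and HOMO1 and HOMO2 were above HOMO3 and HOMO4, so that the genotypes overlapped. The mean was 12.5 ± 4.33 CPM in WT (SD, n = 4 libraries) and 9.95 ± 3.53 CPM in HOMO (SD, n = 4 libraries), with a log2 fold change of -0.32 (SE 0.33, edgeR adjusted p = 0.534). An interval of 2 SE either side ran from -0.98 to 0.34, a span that holds both 0 and the fold threshold in the lower direction. The 4 libraries with high Snhg12 were also those with low proliferation genes, in each genotype, and this was not tested.

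Genes on chromosome 4 had a median shift of 0.36 on the log2 scale in WT4 relative to the mean of the other WT libraries. With each chromosome's shift from the mean of all libraries taken out, Snhg12 gave -0.27. Taf12, a subunit gene of the general transcription factor TFIID in the same neighbourhood, was downregulated from 15.7 ± 2.26 to 9.28 ± 1.86 CPM (SD, n = 4 libraries each; log2 fold change -0.76, edgeR adjusted p = 0.0427). Trnau1ap, its neighbour on the opposite strand, gave -0.52 (edgeR adjusted p = 0.155). Ythdf2 (-0.23), Gmeb1 (0.16), Rcc1 (-0.70) and Phactr4 (-0.06) were not called either, and Rab42 had too few counts. Trafd1 (r = 0.984), 2900093K20Rik (r = 0.974) and Zfp629 (r = 0.970) were most like Snhg12.

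The 3 hosts did not move as one. Gas5 and Snhg1 had positive and Snhg12 negative log2 fold changes, and over the 8 libraries r was 0.45 between Gas5 and Snhg1, 0.42 between Gas5 and Snhg12 and -0.49 between Snhg1 and Snhg12. The ratio of Gas5 to Snhg12 counts was 9.24, 9.49, 6.72 and 6.50 in WT1 to WT4 and 12.1, 12.5, 16.3 and 14.3 in HOMO1 to HOMO4. Every HOMO library was above every WT library in this ratio, which was also chosen after the values were seen and not tested. The ratio of Gas5 to Snhg1 counts was 3.69 ± 1.62 in WT and 2.86 ± 0.62 in HOMO (SD, n = 4 libraries each) and overlapped. Ratios of Snhg1 to Snhg12, Gas5 to Zbtb37 and Snhg1 to Slc3a2 were also taken, and these overlapped too. How often such ratios separate over all pairs of genes was not measured.

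**Figure D3:**
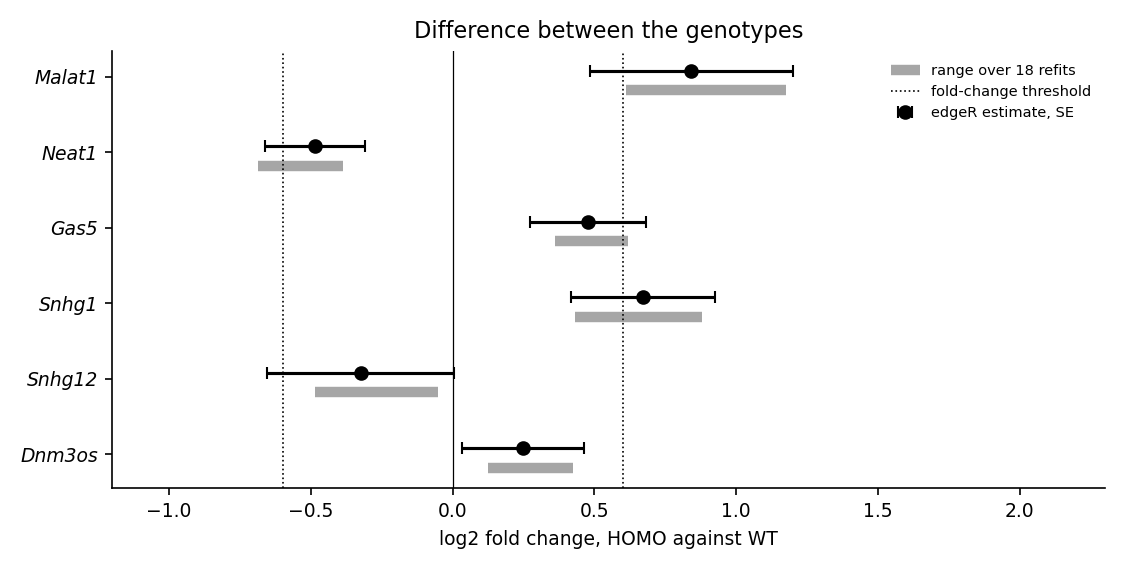
Log2 fold change of HOMO against WT (horizontal axis) for the 6 genes, with the edgeR estimate and its SE in black, the range over 18 refits in grey and dotted lines at the fold threshold of 0.6. No range crossed 0, and only Malat1 stayed past the threshold in every refit, from 0.61 to 1.17.

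Among other snoRNA host genes, 13 were tested. Of these, 0 were called by edgeR (12.1% of all genes), and 5 had an unadjusted p under 0.05, a share near the 32.3% of all genes. Zfas1 had 25.5, 23.4, 34.0 and 23.3 CPM in WT1 to WT4 and 55.1, 59.4, 32.9 and 32.6 CPM in HOMO1 to HOMO4. As with Gas5, WT3 reached the level of HOMO3 and HOMO4 and the other WT libraries were lower, and the log2 fold change was 0.76 (SE 0.25, edgeR adjusted p = 0.0731). Snhg5 had no overlap, with 16.9 ± 3.68 CPM in WT and 25.0 ± 1.91 in HOMO (SD, n = 4 libraries each; log2 fold change 0.57, edgeR adjusted p = 0.0770). Snhg6 gave 0.15 (edgeR adjusted p = 0.609) and Snhg8 gave 0.22 (adjusted p = 0.662). Snhg3 had at most 12 counts in a library and did not enter the test.

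The decay and assembly machinery of these hosts was tested next. Of 18 nonsense-mediated decay genes, 0 were called by edgeR and 4 had an unadjusted p under 0.05, beside 12.1% and 32.3% of all genes, with a median log2 fold change of -0.01. The helicase gene Upf1, central to that decay, stood at 124 ± 21.7 CPM in WT and 167 ± 11.8 in HOMO (SD, n = 4 libraries each), a log2 fold change of 0.42 (edgeR adjusted p = 0.0912), and the kinase gene Smg1 gave -0.05 (adjusted p = 0.943). Of 16 genes for snoRNA-binding proteins and their assembly factors, 1 was called, downwards, against 6.18% of all genes. It was Znhit6, an assembly factor of box C/D particles, with 25.98 ± 4.60 CPM in WT and 16.0 ± 0.50 in HOMO (SD, n = 4 libraries each; log2 fold change -0.70, edgeR adjusted p = 0.0297). The core proteins Fbl (0.02), Nop58 (0.04) and Dkc1 (-0.07) had log2 fold changes near 0 that did not pass the test.

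Dnm3os (ENSMUSG00000078190.7, chr1:162217623-162225550, plus strand, 7928 exon bases) had 23.1, 26.9, 41.8 and 33.6 CPM in WT1 to WT4. HOMO1 to HOMO4 held 40.7, 44.4, 30.6 and 33.2 CPM. The libraries of the genotypes were interleaved, with WT3 above 3 of the 4 HOMO libraries. The mean was 31.4 ± 8.23 CPM in WT (SD, n = 4 libraries) and 37.2 ± 6.45 CPM in HOMO (SD, n = 4 libraries), with a log2 fold change of 0.25 (SE 0.21, edgeR adjusted p = 0.458) and an interval of 2 SE either side from -0.18 to 0.68. Dnm3os varied most like Gas5 among the 6 genes (r = 0.86 over 8 libraries), and over all genes most like Tmub2 (r = 0.995), Pigb (r = 0.988) and Tmem106c (r = 0.988).

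Dnm3, the dynamin gene that holds Dnm3os within its span, was barely detected. Counts for Dnm3 were 15, 17, 103 and 22 across the WT libraries, in the order of their numbers. The HOMO libraries had only 9, 12, 11 and 8. The WT mean was set by WT3, and the log2 fold change of -2.26 (SE 0.76) did not pass the test (edgeR adjusted p = 0.0821). Dnm3os had 27.3, 36.9, 7.08 and 39.5 counts per Dnm3 count in WT1 to WT4 and 102, 122, 54.8 and 82.8 in HOMO1 to HOMO4. The genotypes did not overlap in this ratio, which rests on few Dnm3 counts.

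Of the dynamins and the Twist and Prrx1 transcription factors, known regulators of mesenchymal cells among which Twist1 is known to activate Dnm3os, 6 genes were tested. Of these, 2 were called upwards and 1 downwards, against 5.94% and 6.18% of all genes. The list was chosen with earlier results of these data known, so its share of calls is a description only. Twist1 was upregulated, with 8.21, 7.34, 30.6 and 13.1 CPM in WT1 to WT4 and 51.0, 49.0, 50.5 and 45.5 CPM in HOMO1 to HOMO4 (log2 fold change 1.73, SE 0.43, edgeR adjusted p = 0.0337). Its paralog Twist2 was downregulated, with 15.6, 16.2, 30.9 and 13.6 CPM in WT1 to WT4 and 5.22, 5.45, 4.92 and 7.62 CPM in HOMO1 to HOMO4 (log2 fold change -1.72, SE 0.30, edgeR adjusted p = 0.0114). Neither of these called genes overlapped between genotypes, and Dnm3os itself did. Of the 6 genes tested in this list, 4 did not overlap, against 27.3% of all tested genes. Dnm1, the neuronal dynamin, was upregulated from 19.6 ± 11.5 to 56.1 ± 9.77 CPM (SD, n = 4 libraries each; log2 fold change 1.52, edgeR adjusted p = 0.0281). Prrx1 gave -0.47 (edgeR adjusted p = 0.184).

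**Figure D4:**
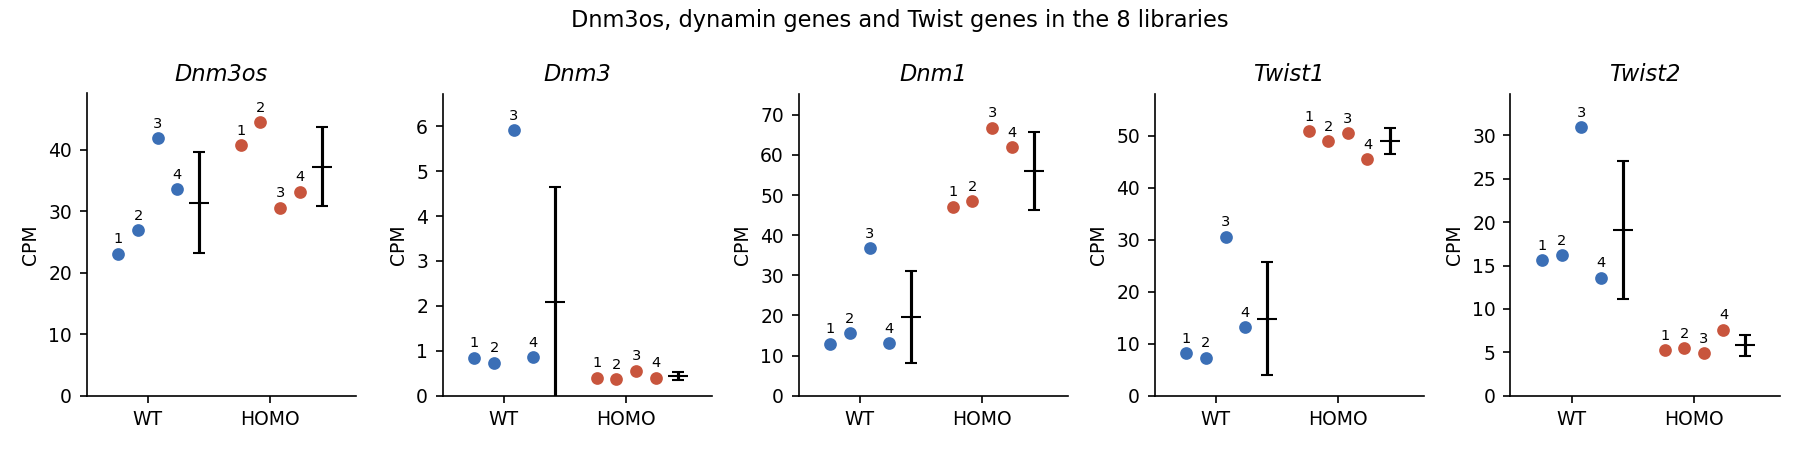
Level in CPM (vertical axes, each from 0) of Dnm3os, the dynamin genes Dnm3 and Dnm1, and Twist1 and Twist2 in WT (blue) and HOMO (red), numbered by replicate, with bars for mean and SD. Twist1 and Dnm1 were higher and Twist2 lower in all 4 HOMO libraries, Dnm3os was interleaved, and WT3 stood apart in Dnm3.

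Among 28 other named long noncoding RNAs tested, 4 were called, all upwards, against 5.94% of all genes called upwards. Airn, the antisense RNA of the imprinted Igf2r locus, had 0.62, 0.69, 1.84 and 0.70 CPM in WT1 to WT4 and 9.01, 8.62, 4.11 and 5.31 CPM in HOMO1 to HOMO4 (log2 fold change 2.82, SE 0.46, edgeR adjusted p = 0.00855). Fendrr, a lung mesenchyme RNA transcribed beside Foxf1, rose from 8.37 ± 4.59 to 28.2 ± 4.52 CPM (SD, n = 4 libraries each; log2 fold change 1.76, edgeR adjusted p = 0.0227). Dleu2, the host of miR-15a and miR-16, rose from 6.60 ± 2.87 to 22.7 ± 8.66 CPM (SD, n = 4 libraries each; log2 fold change 1.79, edgeR adjusted p = 0.0231). The X-linked nuclear RNA Firre lay between 19.1 and 31.98 CPM in WT and between 48.7 and 84.2 CPM in HOMO (log2 fold change 1.27, edgeR adjusted p = 0.0131). None of the 4 overlapped between genotypes, but they were named because they were called. Over the whole list, 9 of 28 did not overlap, against 27.3% of all tested genes.

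Tug1 passed the p threshold but not the fold threshold, with a log2 fold change of 0.53 (SE 0.14, edgeR adjusted p = 0.0388). The imprinted RNAs Meg3 and H19 gave 0.19 (edgeR adjusted p = 0.727) and -0.91 (adjusted p = 0.372). Over the lists of related genes, 9 genes were called in all. Leaving out 1 library changed that count to 5 without WT2, 16 without WT3, 2 without HOMO1 and 3 without HOMO2, and with the near-identical libraries summed it was 0, as it was over all genes. These calls thus depended on single libraries. The log2 fold changes of the 6 genes kept their signs, but the refits reused the same libraries. Intervals of 2 SE either side held 0 for Snhg12 (-0.98 to 0.34) and Dnm3os (-0.18 to 0.68). Kept signs therefore do not make the 6 genes more stable than the calls.

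**Figure D5:**
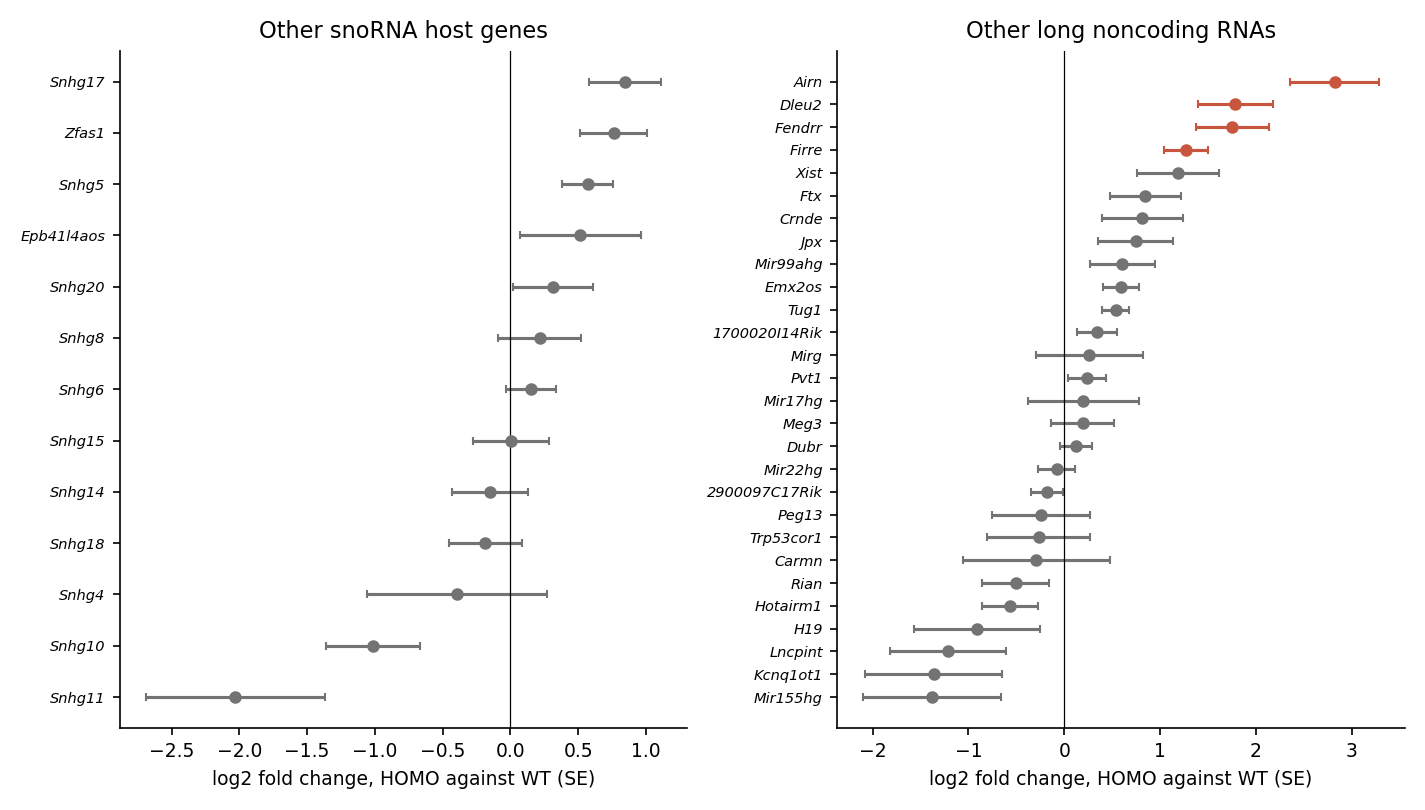
Log2 fold change of HOMO against WT with its SE (horizontal axes) for 13 other snoRNA host genes (left) and 28 other long noncoding RNAs (right), with DEGs in red and the rest in grey. Airn, Dleu2, Fendrr and Firre were the 4 DEGs, all higher in HOMO, and no snoRNA host was a DEG.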

How the data were processed

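The deposited table holds gene counts. The authors sequenced poly(A)-selected RNA in pairs, used fastp for trimming and STAR for alignment to mm10, and made the counts with featureCounts, and the submitters' processing notes also name CASAVA and DESeq2. Versions and the strand setting are not given in the sources used here. The table's name says that an outlier was left out, and which library that was is not given. All 8 libraries and 0 further columns of per-sample values were handled as 4 WT and 4 HOMO, named by the replicate number in their labels.

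Counts were scaled by TMM and compared by edgeR's two-sided quasi-likelihood test (edgeR 4.0.16, R 4.3.3) after filterByExpr, which kept 14150 genes, with Benjamini-Hochberg adjustment over all of them. Levels are CPM after this scaling, with a prior count of 2 before taking log2. DEGs needed an adjusted p below 0.05 and a log2 fold change beyond 0.6 in either direction. Depth per library, 17236521 to 31987790 counts, puts 3 counts at 0.0938 to 0.174 CPM. Alternatives were DESeq2 1.42.0, limma 3.58.1 (voom with sample quality weights), RLE and upper-quartile scaling, no filter, a filter of CPM above 1 in 4 or more libraries, a robust dispersion estimate, a replicate block, an adjusted p under 0.01, no fold threshold, a chromosome offset, near-identical libraries summed (into 3 WT and 2 HOMO units) and leaving out each library.

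Named were all 6 genes, every gene called in the lists of related genes (at most 4 a list) with a few set by name, protein-coding neighbours within 100 kilobases, and the 3 genes most like each. Some neighbours are not reported here. Ratios of counts and the count of ribosomal protein genes were added after values were seen. The members and lists were chosen with earlier results of these data known. Positions are from GENCODE M21 (GRCm38, also called mm10), matched by symbol. Sequences are from RefSeq (GRCm38.p6) and GENCODE M21. Figures were drawn with matplotlib 3.10.9 in Python 3.11.15.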

Additional observations from a re-analysis of the deposited data

Results flagged for a closer look

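Among the 4 WT libraries, the Gas5 level of WT3 (122 CPM) stood apart from the other 3 (85.1 to 88.3 CPM), with a gap to the nearest library of 0.896 of the whole range. Each of the 6 genes was examined in each genotype, 12 groups in all. For 4 independent libraries, chance alone sets about 1 in 20 groups apart in this way. Both genotypes held near-identical pairs, among them WT1 with WT2, so that rate need not hold here. WT3 was also the library with the most macrophage and leukocyte marker counts, the most mouse Igfbp5 counts and the lowest share of mitochondrial counts (0.643%), and their part in its Gas5 level was not tested.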

How the results depend on the processing

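No log2 fold change of the 6 genes changed sign in 18 refits (the other alternatives moved only a threshold), with ranges of 0.61 to 1.17 for Malat1, -0.68 to -0.39 for Neat1, 0.36 to 0.62 for Gas5, 0.43 to 0.88 for Snhg1, -0.49 to -0.05 for Snhg12 and 0.13 to 0.42 for Dnm3os. Of the 6, 2 were called by limma-voom, and between 0 and 1 when single libraries were left out (Malat1, without WT4). The 9 calls in the lists of related genes became 14 with DESeq2, 28 with limma-voom, 1 at an adjusted p under 0.01, and between 2 and 16 when single libraries were left out. Over all genes, 1716 DEGs became 2913 with DESeq2, 3573 with limma-voom, 398 at an adjusted p under 0.01, and between 507 and 2192 when single libraries were left out (507 without HOMO1, 512 without HOMO2). With near-identical libraries summed, 0 genes were called in the lists and 0 over all genes, from 3 WT and 2 HOMO units, and the adjusted p of the 6 genes ranged from 0.403 to 0.837. A replicate block gave 947 DEGs and 0 of the 6 genes. Same-numbered libraries of the genotypes did not deviate together (correlations of -0.091, -0.0424, 0.0141 and -0.124), so the numbers were not taken to pair them. The causes of these moves were not tested, and leaving out or summing libraries also lowered the number of samples. Of the 6 genes Snhg12 had the least depth, 132 to 438 counts a library.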
